A study of Macaca fascicularis with 23 samples.

Results

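The immediate early and stress response genes FOS, JUN, JUNB, EGR1, ATF3, MYC, CEBPB, DUSP1, ZFP36 and NFKBIA were followed in livers of ciprofibrate-dosed cynomolgus monkeys (Macaca fascicularis). The members were 10 genes of the 8229 that at least 1 probe set of the array names alone. They were found by gene symbol in the array annotation, which gave 17 probe sets of 12625. MYC had 4 probe sets, FOS 3, JUN and JUNB 2 each, and the other 6 genes 1 each. All 10 symbols also occur in the RefSeq annotation of the macaque genome.

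Each of 23 animals gave 1 liver RNA sample, hybridised to 1 array. The 4-day groups were 2 animals on ciprofibrate at 400 mg/kg/day and 2 on vehicle alone. For 15 days, 3 animals had vehicle and the doses 3, 30, 150 and 400 mg/kg/day were given to 4 animals each. Ciprofibrate is a lipid-lowering fibrate and an agonist of PPAR-alpha, a nuclear receptor. The labels state neither the animals' age nor what the vehicle was, and RNA came from frozen tissue of 1 liver lobe. The array was designed on human transcripts, so a monkey sequence difference can lower the signal of a probe set in every animal. Values are MAS5 intensities on a linear scale, and the 2% trimmed mean of the deposited values lay between 150.065 and 150.08 on every array. Signals were compared only within a probe set, and the number of arrays limits the precision. The liver identity was borne out by albumin (ALB), at 13609 to 31482 over the 23 arrays, and SERPINA1, at 15806 to 32144.

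Immediate early genes are transcribed within minutes of a growth factor, cytokine or stress signal, without new protein synthesis, and their mRNAs are short-lived. FOS, JUN and JUNB encode subunits of the AP-1 transcription factor, EGR1 a zinc finger factor, ATF3 a stress-induced repressor and MYC a factor that drives growth genes. CEBPB encodes a liver transcription factor of the acute phase response. DUSP1, ZFP36 and NFKBIA are feedback inhibitors: DUSP1 dephosphorylates MAP kinases, ZFP36 (tristetraprolin) marks cytokine and early gene mRNAs for decay, and NFKBIA holds NF-kappaB in the cytoplasm. In liver these genes are also known to respond to surgery, partial hepatectomy and tissue handling.

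Differences below are on the scale of log2(intensity + 16) with their standard errors (SE), and a fold derived from them understates the change of a dim probe set. Of the 17 probe sets, 15 passed a filter on the mean intensity, whose limit was 39.7, and stood for 9 genes. The only probe set of ATF3 and 1 of the 2 of JUN (32583_at) lay below it. The tests ran over 7535 probe sets, with p-values adjusted over all of them by Benjamini-Hochberg. Called means an adjusted p under 0.05 in the limma fit. All 4 dose comparisons at 15 days used the same 3 vehicle animals, so they are not independent of each other.

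After 15 days on 400 mg/kg/day DUSP1, ZFP36, CEBPB and 1 of the 2 JUNB probe sets fell below vehicle, and no member rose. Among the 3 called genes with a single probe set DUSP1 had the highest fold, and FOS, JUN, MYC, EGR1 and NFKBIA were not called. Of the 15 tested member probe sets 4 were called lower, where 0.876% of all tested probe sets were called lower, and 0 were called higher, where 1.26% of all were (2.14% in either direction). The 15 had a median difference of -0.82, against -0.03 over all tested probe sets. In 8 of the 15 all 4 treated animals lay below all 3 vehicle animals, a pattern seen in 6.53% of all tested probe sets. Several of these belong to 1 gene and do not count as separate observations. The members were also chosen with earlier results of these data known, so the comparison with all tested probe sets is a description.

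DUSP1 (1005_at) had intensities of 282.6, 363, 576.6 and 646.5 in animals on 400 mg/kg/day, against 1249.1, 1435.9 and 1729.4 in 15-day vehicle animals. The highest treated animal was thus well under the lowest vehicle animal. The difference was -1.68 ± 0.36 (SE), 3.21-fold lower, with an adjusted p of 0.00978. The call rested partly on 1 vehicle animal: without vehicle replicate 1 the difference was -1.56 and the adjusted p 0.0705.

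ZFP36 (40448_at) stood at 190.5, 251.1, 265.4 and 308.1 on 400 mg/kg/day, against 439.7, 544.3 and 551.8 in vehicle animals, again without overlap. The difference was -0.98 ± 0.19 (SE), 1.97-fold lower (adjusted p = 0.0049). It stayed called in each of the 14 refits run for this comparison, with an adjusted p of at most 0.036.

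CEBPB (38354_at) read 1854.1, 2834.7, 2835.4 and 4125 at 400 mg/kg/day, against 4789.5, 5127.6 and 5731.4 in vehicle animals. The treated animals differed more among themselves than the vehicle animals did, and the groups did not overlap. The difference was -0.89 ± 0.22 (adjusted p = 0.0339). This call was lost in 9 of 14 refits, among them those without vehicle replicate 1, 2 or 3 (adjusted p = 0.102, 0.135 and 0.063) and without treated replicate 1, 2 or 4 (adjusted p = 0.0718, 0.0664 and 0.124).

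JUNB had 2 probe sets that were both lower. With 2049_s_at the 4 animals on 400 mg/kg/day had 9, 14.7, 20.6 and 20.8, against 82.1, 152.3 and 380 in vehicle animals. All 4 treated values lay under the filter's limit of 39.7, and the size of the fall depends on the pseudocount. It was -2.55 ± 0.48 (adjusted p = 0.00362), and -3.36 and -1.59 with pseudocounts of 1 and 64. With 32786_at the treated animals had 22.5, 124.9, 132.2 and 151.6, against 373.3, 508.2 and 604.5, a difference of -2.22 ± 0.65 that was not called (adjusted p = 0.0805).

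**Figure D1:**
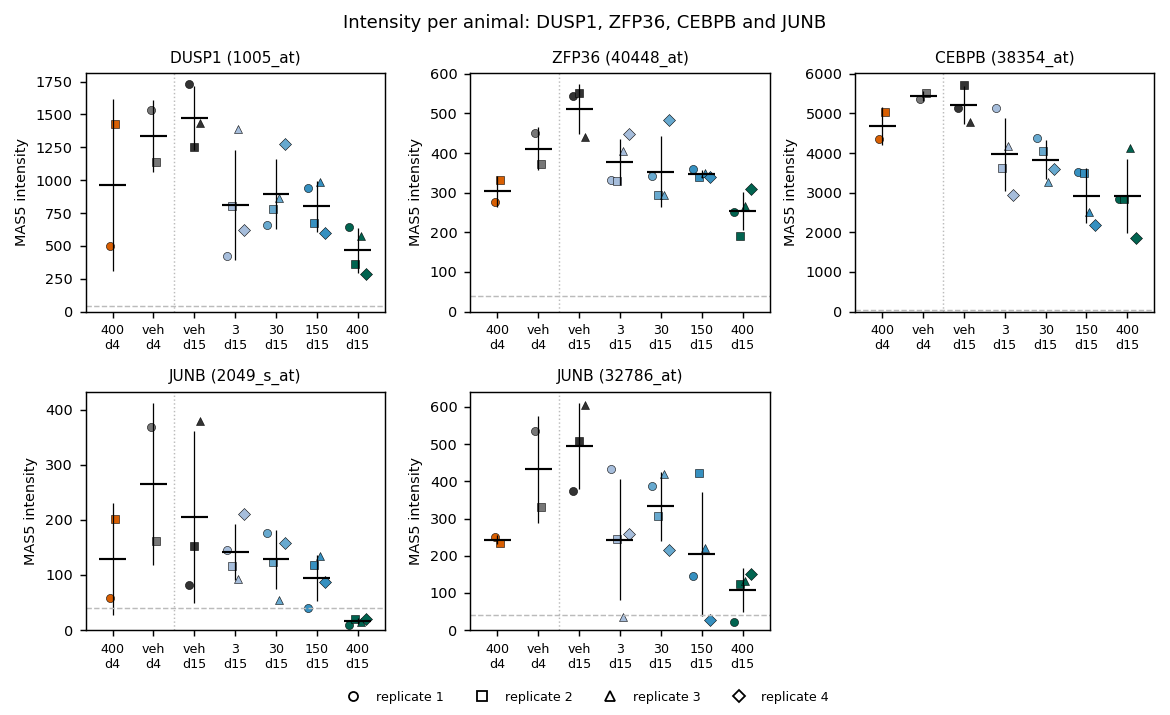
MAS5 intensity (linear axis from 0) of DUSP1, ZFP36, CEBPB and both JUNB probe sets in each animal, for the 4-day groups (left of the dotted line: 400 mg/kg/day, then vehicle) and the 15-day groups from vehicle to 400 mg/kg/day. Bars are group means, vertical lines 1 SD and the dashed line the filter's limit of 39.7; in all 5 panels the 4 animals on 400 mg/kg/day for 15 days lie below the 3 vehicle animals.

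Summed levels of several cell type marker lists also differed at this dose, most of them lower and 1 higher. The summed intensity of 8 Kupffer cell and macrophage markers was 2578 to 3523 in the animals on 400 mg/kg/day, against 3981 to 5478 in 15-day vehicle animals, and that of 8 endothelial markers was 1561 to 1844, against 2353 to 2591. Each list held 11 genes, and MSR1, C1QA and C1QC of the first and CDH5, STAB2 and CLEC4M of the second were not summed. A sum follows its brightest genes. CD14 led the first, with a median of 2419.5 over the arrays where the others had 64.1 to 379.1. FCN3 and STAB1 led the second, at 672.9 and 584.2. Between 400 and 3 mg/kg/day CD14 and MARCO were called lower (-0.78 ± 0.19 and -2.21 ± 0.46, adjusted p = 0.0184 and 0.00608). CD68 and VSIG4 were not below 0 (0.16 ± 0.27 and 0.00 ± 0.25), and the rest of the first list were lower but not called. FCN3 and STAB1 of the second list differed by -0.17 ± 0.24 and -0.18 ± 0.20 in that comparison. PECAM1 was above 0 (0.33 ± 0.35), and no endothelial gene was called. Against 15-day vehicle, sums of 8 of 9 hepatocyte markers (all but HNF4A) were also lower, at 55943 to 65017 against 77744 to 79908. Of these 8 genes only CYP2E1, a cytochrome P450, was called against vehicle (-3.56 ± 0.49, adjusted p = 0.000161), 3 were above 0, and ALB differed by 0.00 ± 0.23. In the comparison of 400 with 3 mg/kg/day CYP2E1 and APOB were called lower (-3.88 ± 0.45 and -1.34 ± 0.24, adjusted p = 1.48e-05 and 0.00151). TTR, FGB and AHSG were above 0 there (0.65 ± 0.20, 0.23 ± 0.28 and 0.21 ± 0.21), and the rest were below 0 but not called. Lower than in vehicle animals as well were the sums of 8 of 11 stellate cell and fibroblast markers (DCN, PDGFRB and RGS5 not summed), at 1077 to 1295 against 1385 to 1993. VIM was the brightest of these, with a median of 635.2 over the arrays, and differed by -0.39 ± 0.23 between 400 and 3 mg/kg/day. COL1A1 and TAGLN were above 0 there (0.77 ± 0.36 and 0.23 ± 0.39), the rest of the list were below 0, and none was called. Sums of 7 of 10 T cell and NK cell markers were higher than in vehicle animals without overlap, at 975.2 to 1118 against 910.3 to 944.1. Between 400 and 3 mg/kg/day these 7 genes ran from 0.03 ± 0.43 for CD2 to 0.98 ± 0.31 for CD8A, and none was called. Sums of 6 of 10 neutrophil and monocyte markers overlapped with vehicle, at 595.5 to 760.1 against 515.4 to 742.4, as did those of 4 red cell, 2 B cell and plasma cell and 2 cholangiocyte markers. The ratio of the 5′ to the 3′ ACTB probe set, a sign of RNA integrity, was 0.681 ± 0.126 (SD, n = 4) against 0.574 ± 0.033 (SD, n = 3). The same ratio for GAPDH was 1.108 ± 0.123 against 1.061 ± 0.304, and both ratios overlapped between the groups. In whole liver, fewer cells of a type and less RNA per cell cannot be told apart, and the part of these shifts in the falls was not tested.

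Below the top dose the same 15 probe sets leaned low, but 0 were called. The doses share the same 3 vehicle animals and several probe sets belong to 1 gene, so the signs are not separate observations. Over all tested probe sets the median difference was -0.016 at 3, 0.001 at 30 and -0.025 at 150 mg/kg/day. At 3 mg/kg/day all 15 differences were below 0 (median -0.43) and 3 had an unadjusted p under 0.05, as did 757 of all 7535 tested probe sets, of which 0% were called. At 30 mg/kg/day 13 of 15 were below 0 (median -0.45), 2 with an unadjusted p under 0.05, as for 740 of all 7535, of which 0.0133% were called in either direction. At 150 mg/kg/day all 15 were below 0 (median -0.60) and 7 had an unadjusted p under 0.05, as did 850 of all 7535, of which 0.677% were called. Groups that did not overlap numbered 0 of 15 at 3 mg/kg/day, 2 at 30 and 3 at 150, all lower than vehicle, against 4.86%, 4.03% and 4.98% of all tested probe sets. The plot of differences by dose shows how wide the intervals are for JUNB, EGR1 and FOS.

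**Figure D2:**
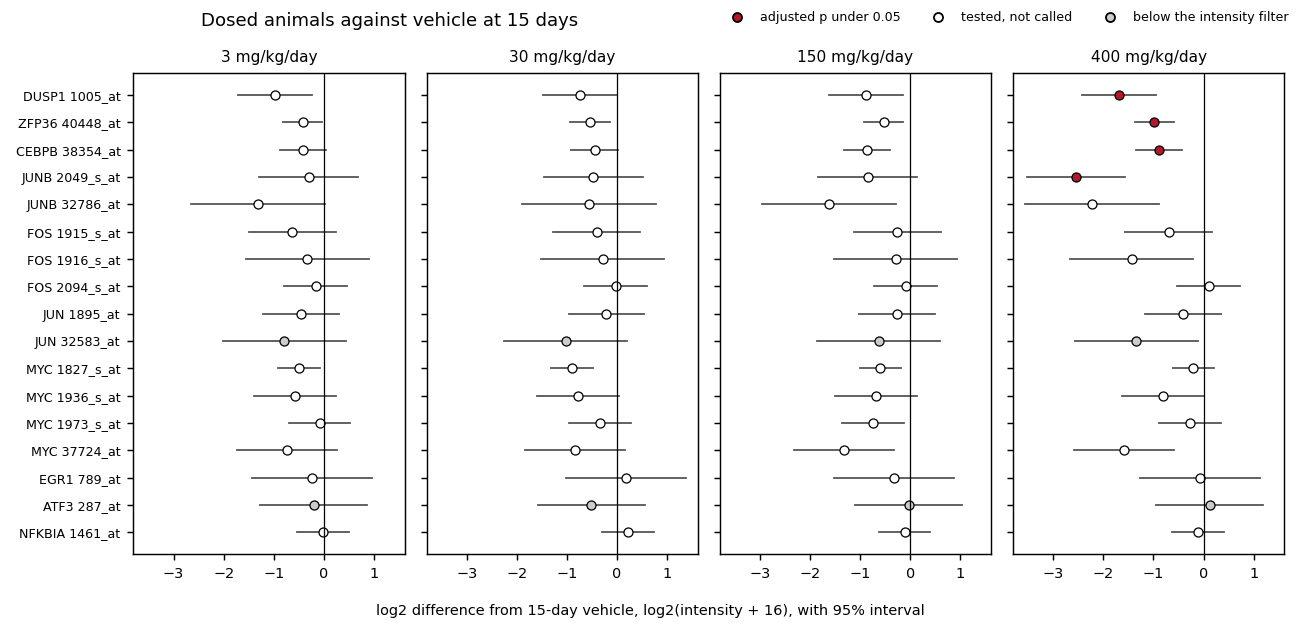
Difference from 15-day vehicle on the log2(intensity + 16) scale, with its 95% interval from the fit, for all 17 probe sets at 3, 30, 150 and 400 mg/kg/day. The filled red points, the 4 with an adjusted p under 0.05, are all at 400 mg/kg/day, and grey points mark the 2 probe sets below the filter.

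The values of ZFP36 show the lean at low doses. Its mean was 511.9 ± 62.7 in vehicle animals (SD, n = 3), 378.3 ± 58.2 at 3, 353.2 ± 89.1 at 30, 347.2 ± 10.1 at 150 and 253.8 ± 48.6 at 400 mg/kg/day (SD, n = 4 each). The first 3 doses thus sat close together, between vehicle and the top dose. DUSP1 had means of 1471 ± 242 in vehicle animals, then 809.6 ± 418, 894.7 ± 269, 799.9 ± 194 and 467.2 ± 172 over the same doses, also with little difference between 3 and 150 mg/kg/day. CEBPB ran 5216 ± 477, 3970 ± 929, 3827 ± 493, 2927 ± 689 and 2912 ± 931, with its lowest means at the last 2 doses. JUNB 2049_s_at went through 204.8 ± 156, 141.3 ± 50.9, 128.3 ± 53.9, 94.6 ± 41.4 and 16.3 ± 5.62, and its low at 400 mg/kg/day stood apart from every animal of the other doses. JUNB 32786_at had means of 495.3 ± 116, 242.8 ± 163, 332.4 ± 91.5, 203.6 ± 166 and 107.8 ± 58.0. Its animals on 400 mg/kg/day overlapped those on 3 and 150 mg/kg/day.

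The mean of all 4 doses against vehicle asked whether members differed in dosed animals whatever the dose. It called 0 of the 15, where 0.239% of all tested probe sets were called, and 8 had an unadjusted p under 0.05, as did 805 of all 7535. ZFP36 came nearest, at -0.62 ± 0.16 (adjusted p = 0.0866), followed by DUSP1 at -1.07 ± 0.29 (adjusted p = 0.126) and CEBPB at -0.65 ± 0.18 (adjusted p = 0.136). ZFP36 was called without replicate 4 at 30 mg/kg/day, at -0.66 with an adjusted p of 0.0408.

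The slope ran over 5 levels, vehicle and the doses up to 400 mg/kg/day, taken in order as equally spaced. A step is the move from a level to the next, whatever its size in mg/kg/day. The slope was below 0 for 14 of the 15 tested member probe sets, and those called were the same 4 as at 400 mg/kg/day against vehicle. Of 15, 4 were called falling with dose, where 1.31% of all tested probe sets were called falling and 3.11% in either direction. JUNB 2049_s_at changed by -0.57 ± 0.10 per step (adjusted p = 0.00217), and by -0.74 and -0.36 with pseudocounts of 1 and 64. ZFP36 changed by -0.21 ± 0.04 (adjusted p = 0.00479), CEBPB by -0.22 ± 0.05 (adjusted p = 0.0102) and DUSP1 by -0.33 ± 0.08 (adjusted p = 0.0184). DUSP1 lost this call without vehicle replicate 1, or without replicate 2 or 4 at 400 mg/kg/day (adjusted p = 0.0866, 0.0503 and 0.0584). JUNB 32786_at and MYC 37724_at had slopes of -0.47 ± 0.14 and -0.38 ± 0.11 that missed the threshold (adjusted p = 0.0726 and 0.0534). That of JUNB 32786_at was called without replicate 3 at 3 mg/kg/day or replicate 2 at 150 mg/kg/day (adjusted p = 0.0138 and 0.0345). That of MYC 37724_at was called without replicate 3 at 150, 2 at 400 or 3 at 400 mg/kg/day (adjusted p = 0.0328, 0.0424 and 0.0213).

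A comparison of 400 with 3 mg/kg/day at 15 days used no vehicle animal. JUNB 2049_s_at was the 1 member called, at 9 to 20.8 in animals on 400 mg/kg/day and 92.8 to 210.3 in animals on 3 mg/kg/day. The difference was -2.25 ± 0.44 (adjusted p = 0.00333), where 2.26% of all tested probe sets were called lower and 4.18% in either direction. Its value was -3.04 and -1.33 with pseudocounts of 1 and 64. The other JUNB probe set, 32786_at, differed by -0.91 ± 0.60 (adjusted p = 0.475) and was not called. Its groups overlapped, at 22.5 to 151.6 on 400 mg/kg/day against 36.3 to 433.5 on 3 mg/kg/day. ZFP36 differed by -0.55 ± 0.18 (adjusted p = 0.0789), DUSP1 by -0.71 ± 0.33 (adjusted p = 0.262) and CEBPB by -0.47 ± 0.21 (adjusted p = 0.234).

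After 4 days of 400 mg/kg/day no member was called, in a comparison of 2 with 2 animals. Of 15 probe sets 0 were called, where 0.292% of all tested probe sets were, and 1 had an unadjusted p under 0.05, as did 575 of all 7535. DUSP1 was 499.6 and 1424 in treated animals, against 1140.5 and 1531.6 in vehicle animals, so 1 of the 2 treated animals lay within the vehicle range. ZFP36 was 275.4 and 330.9, against 372.9 and 449.8, a difference of -0.42 ± 0.25 (adjusted p = 0.808). CEBPB was 4353.5 and 5025.3, against 5353.5 and 5522.2 (-0.22 ± 0.29). In 8 of 15 both treated animals lay below both vehicle animals, as did 23.6% of all tested probe sets. The 15-day effect of the dose minus the 4-day effect was -1.05 ± 0.59 for DUSP1, -0.56 ± 0.31 for ZFP36, -0.67 ± 0.37 for CEBPB and -1.50 ± 0.78 for JUNB 2049_s_at (-2.18 and -0.79 with pseudocounts of 1 and 64). None of these differences between days was called (adjusted p = 0.999 each), where 0% of all tested probe sets were called and 254 of 7535 had an unadjusted p under 0.05.

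MYC gave different answers by probe set. For 1827_s_at the 15-day vehicle animals had 1207.5, 1683.6 and 2177.3, against 584.4 and 683.7 in 4-day vehicle animals. Vehicle animals of the 2 days did not overlap, as in 16.1% of all tested probe sets that were higher at 15 days without overlap. The difference of 1827_s_at was 1.36 ± 0.24, 2.56-fold higher at 15 days (adjusted p = 0.00674). It was the 1 member of 15 called in this comparison, where 0.637% of all tested probe sets were called higher and 0.863% in either direction. With 1 of the 2 4-day vehicle animals left out, replicate 1 or 2, the call was lost (adjusted p = 0.125 and 0.0624). The other 3 MYC probe sets differed the other way and were not called: 1936_s_at by -0.33 ± 0.47, 1973_s_at by -0.71 ± 0.35 and 37724_at by -0.32 ± 0.58. For 1973_s_at the days did not overlap either, at 180.8 to 324.1 against 349.4 to 392.3 at 4 days. That pattern, lower at 15 days, held for 17.5% of all tested probe sets. The difference between days was not one of vehicle animals alone, since 1827_s_at stood at 1329.3 to 1587 in animals on 400 mg/kg/day for 15 days and at 511.5 and 713.3 in those on it for 4 days.

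Other measures moved with day in the vehicle animals. The ratio of the 5′ to the 3′ ACTB probe set was 0.574 ± 0.033 at 15 days (SD, n = 3) and 0.868 ± 0.170 at 4 days (SD, n = 2). The GAPDH ratio differed the other way with overlap, at 1.061 ± 0.304 and 0.970 ± 0.032. The summed intensity of 4 red cell markers was 2024 to 3089 at 15 days and 4919 to 5291 at 4 days, and that of 8 stellate cell and fibroblast markers was 1385 to 1993 and 2354 to 2411. Higher at 15 days, as MYC 1827_s_at was, were the sums of 8 hepatocyte markers (77744 to 79908, against 64500.2 to 65264 at 4 days) and of 2 B cell and plasma cell markers (291.3 to 439.8, against 114.1 to 257 at 4 days). The other marker sums overlapped between the days. Their part in the MYC difference was not tested.

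Against vehicle of the same day the MYC probe sets also disagreed in pattern. At 15 days 1827_s_at averaged 1689 ± 485 in vehicle animals (SD, n = 3), then 1166 ± 80.8 at 3, 903.4 ± 274 at 30, 1088 ± 139 at 150 and 1430 ± 110 at 400 mg/kg/day (SD, n = 4 each), with its lowest mean at 30 mg/kg/day (-0.90 ± 0.20, adjusted p = 0.186). Without replicate 4 at 30 mg/kg/day that difference was -1.08 and was called (adjusted p = 0.0337). For 37724_at the means were 138.6 ± 49.0, 76.4 ± 27.7, 72.5 ± 35.9, 48.5 ± 29.7 and 42.2 ± 36.5, lowest at the top dose (-1.59 ± 0.48, adjusted p = 0.0994). That difference was called without replicate 3 at 400 mg/kg/day, at -1.93 with an adjusted p of 0.0447. At 4 days 1973_s_at had 129.3 and 147.8 in treated animals, against 349.4 and 392.3 in vehicle animals (-1.32 ± 0.39, adjusted p = 0.203), while 1827_s_at had 511.5 and 713.3, against 584.4 and 683.7 (-0.06 ± 0.26).

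**Figure D3:**
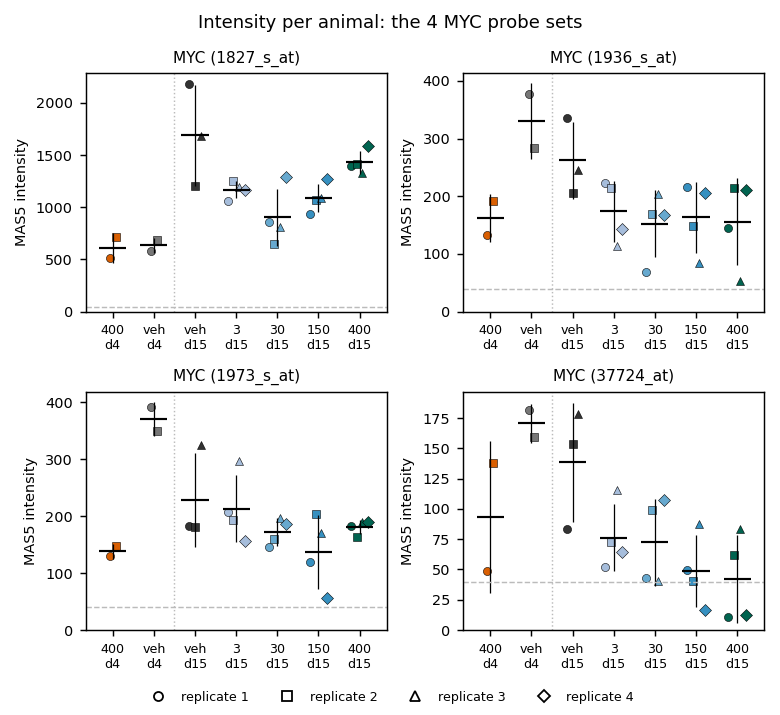
MAS5 intensity (linear axis from 0) of the 4 MYC probe sets in each animal, grouped as 4 days (400 mg/kg/day, then vehicle) and 15 days (vehicle to 400 mg/kg/day), with group mean, 1 SD and the filter's limit of 39.7 dashed. In the panel of 1827_s_at the 4-day animals lie at 511.5 to 713.3 and the 15-day vehicle animals at 1207.5 to 2177.3, while in the other panels the 15-day vehicle mean lies below the 4-day vehicle mean.

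FOS was not called in any comparison, and its 3 probe sets differed in size and sign at the top dose. With 1915_s_at the animals on 400 mg/kg/day had 66.3, 73.9, 84.3 and 96.4, against 113.4, 150 and 157.4 in 15-day vehicle animals, with no overlap (-0.70 ± 0.42, adjusted p = 0.552). With 1916_s_at they had 1.6, 13.7, 23.1 and 46.2, against 68, 73.2 and 84.3 (-1.44 ± 0.59, adjusted p = 0.283), and 3 of the 4 treated values lay under the filter's limit. With 2094_s_at the groups overlapped, at 69.9 to 95.1 against 65.8 to 80.6 (0.10 ± 0.30). The spread at the lower doses came mainly from 1 animal of each: on 1915_s_at replicate 4 read 179.5 at 3, 257.8 at 30 and 223.5 at 150 mg/kg/day, while the other animals of these doses read 45.7 to 106.5.

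**Figure D4:**
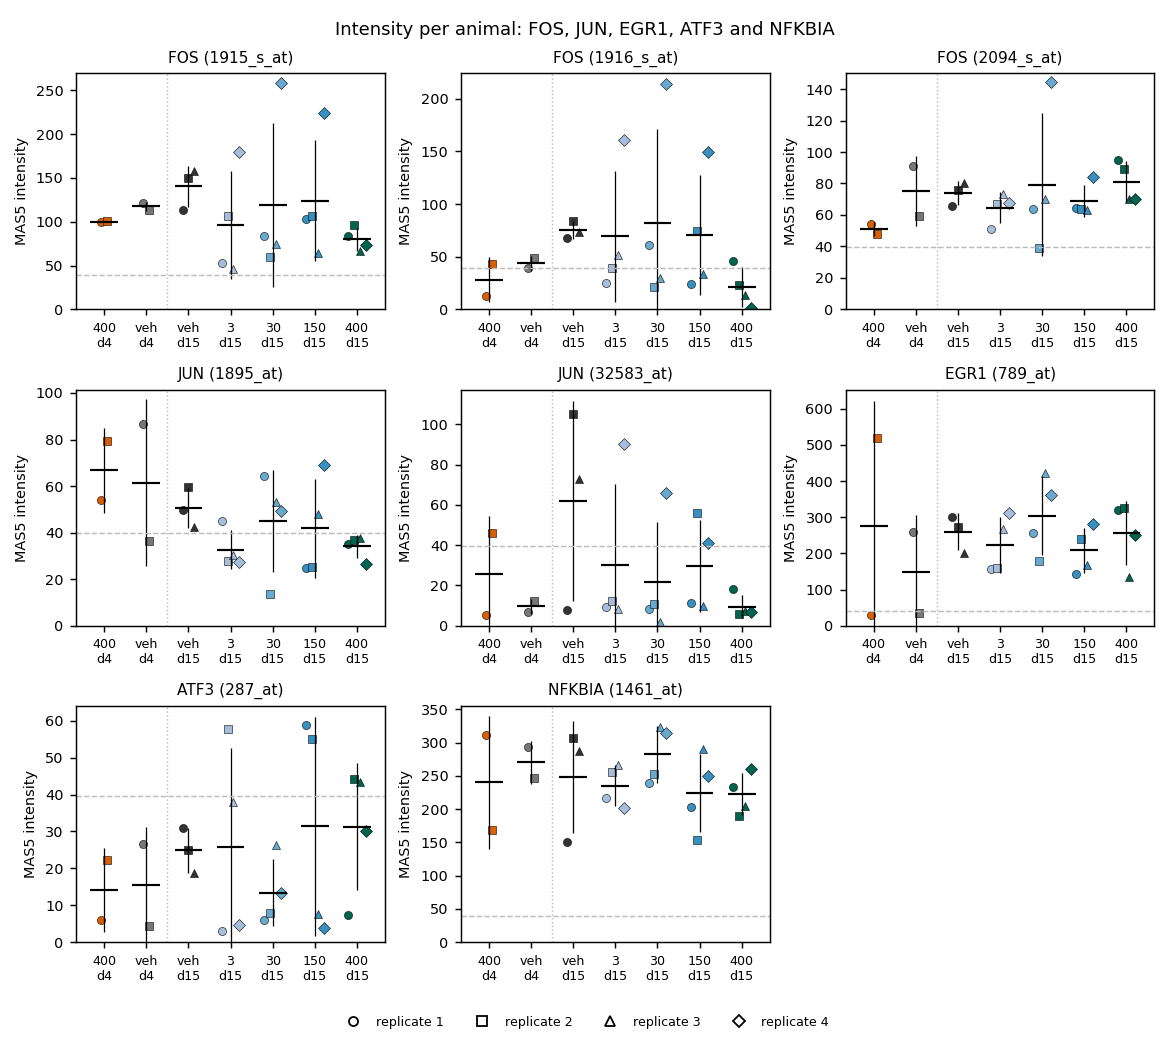
MAS5 intensity (linear axis from 0) of the FOS, JUN, EGR1, ATF3 and NFKBIA probe sets in each animal, with groups ordered as 4 days (400 mg/kg/day, then vehicle) and 15 days (vehicle to 400 mg/kg/day), group means, 1 SD and the filter's limit of 39.7 dashed. Diamonds show replicate 4, highest of its group on FOS 1915_s_at and 1916_s_at at 3, 30 and 150 mg/kg/day.

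The remaining members showed no called difference. JUN 1895_at, dim on all arrays at 13.7 to 86.8, had 26.7 to 37.6 in animals on 400 mg/kg/day, against 42.6 to 59.7 in 15-day vehicle animals (-0.41 ± 0.36, adjusted p = 0.742). Its second probe set, 32583_at, ran from 2 to 105.3 over all arrays, and ATF3 from 3.1 to 58.9, both below the filter. EGR1 (789_at) had 135.6, 249.5, 319.3 and 325.5 on 400 mg/kg/day, against 202.3, 273.7 and 301.7 in vehicle animals, fully overlapping (-0.06 ± 0.58, 95% interval -1.26 to 1.14). At 4 days EGR1 was 30.7 and 520.3 in treated animals, against 35.2 and 260 in vehicle animals, so that animals of 1 group differed more than the groups did. NFKBIA (1461_at) had 189.5 to 260.7 on 400 mg/kg/day, against 151.2 to 306.8 in vehicle animals, and its difference of -0.10 ± 0.25 had a 95% interval of -0.62 to 0.42. A change of DUSP1's size lay outside that interval.

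Probe sets of 1 gene were also compared animal by animal, as deviations of log2 values from the group mean over 23 arrays, in 11 pairs with permutation within groups. The 3 FOS pairs had Pearson r of 0.80, 0.69 and 0.68 (permutation adjusted p = 0.0145 each) and Spearman rho of 0.68, 0.63 and 0.54 (permutation adjusted p = 0.0153, 0.0153 and 0.0799). Without the 2 arrays farthest from the median r was 0.64, 0.57 and 0.57, and 0 of the 3 pairs passed the adjusted threshold (permutation adjusted p = 0.121, 0.0658 and 0.0658), so the relation rested partly on those arrays. The 6 MYC pairs had r from -0.35 to 0.43 and 0 were called, the JUNB pair had r = 0.31 and the JUN pair r = 0.03.

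**Figure D5:**
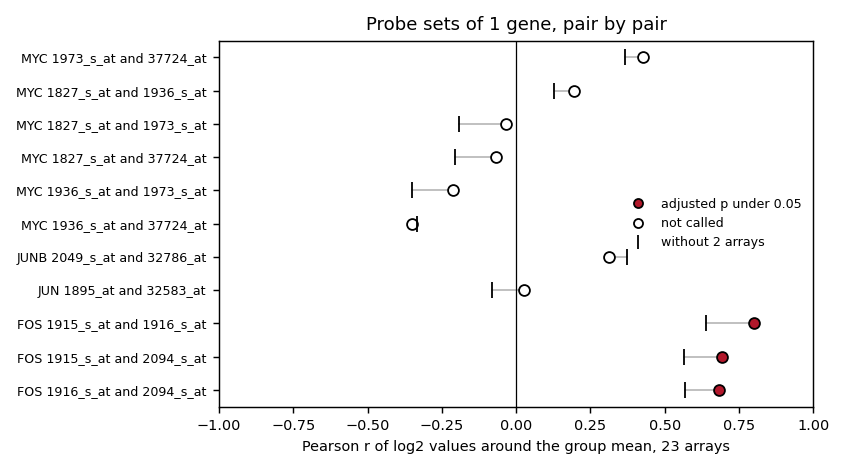
Pearson r between probe sets of the same gene over 23 arrays after subtracting group means, for 11 pairs, with ticks for the value without 2 arrays. The 3 filled points are the FOS pairs at 0.68 to 0.80, while the MYC pairs run from -0.35 to 0.43.

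Between genes, the 9 representative probe sets gave 36 pairs, of which 0 passed an adjusted p of 0.05 by Pearson or Spearman and 2 had an unadjusted Pearson permutation p under 0.05. Pearson r ran from -0.44, for JUNB with DUSP1, to 0.48, for JUN with EGR1, with a median of 0.04. These representative probe sets were therefore not shown to vary together among animals of the same group. DUSP1 and ZFP36, which both fell at the top dose, had r = 0.36 and Spearman rho = 0.34 (permutation p = 0.158 and 0.181, permutation adjusted p = 0.441 and 0.749), and r = 0.24 without 2 arrays.

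Genes of the same pathways, taken from lists, mostly did not pass the test in animals given 400 mg/kg/day over 15 days. Among 17 other AP-1, EGR and early transcription factors 0 were called (median -0.23), with KLF6 at -0.39 ± 0.26 and ID3 at -0.33 ± 0.16. Slopes over dose had both signs in this list, such as -0.20 ± 0.06 per step for KLF9 (adjusted p = 0.064) and 0.14 ± 0.11 for FOSB. Of 16 MAP kinases and phosphatases 0 were called (median -0.02), with MAP3K5, a stress-activated kinase, at -1.17 ± 0.44 (adjusted p = 0.22) and MAP2K1 at 0.42 ± 0.21. Their slopes also had both signs, such as -0.23 ± 0.07 per step for DUSP6 (adjusted p = 0.076) and 0.09 ± 0.05 for MAP2K1. In the NF-kappaB pathway CHUK, an IkappaB kinase, rose by 0.76 ± 0.19 (adjusted p = 0.0311), and the other 10 of 11 measured genes missed the threshold (median of the list -0.37). CHUK also rose with the dose slope (0.19 ± 0.04 per step, adjusted p = 0.00977) and against 3 mg/kg/day (0.95 ± 0.17, adjusted p = 0.00192). Of all tested probe sets 3.11% and 4.18% were called in these comparisons in either direction.

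The other lists held few calls, as did all tested probe sets (2.14% in either direction). In the MYC network 0 of 12 were called at this dose (median -0.04). NCL, which encodes nucleolin, was lower at 400 than at 3 mg/kg/day (-0.67 ± 0.17, adjusted p = 0.0198), where 2.26% of all tested probe sets were called lower. Of 10 C/EBP and cytokine feedback genes 0 were called (median -0.16), and CEBPD, a relative of CEBPB, differed by -0.91 ± 0.31 (adjusted p = 0.158) and SOCS2 by -1.01 ± 0.39 (adjusted p = 0.235). Neither the 9 genes around ZFP36 and mRNA decay (median -0.15, PARN -0.19 ± 0.37, CNOT2 -0.11 ± 0.28) nor the 13 of the ATF4 and GADD45 stress response (median -0.32, ATF6 0.74 ± 0.47, ATF4 0.15 ± 0.25) held a call. Of the 13, CDKN1A and SGK1 were lower at 400 than at 3 mg/kg/day without a call (-1.26 ± 0.46 and -1.48 ± 0.54, adjusted p = 0.134 each). EIF2AK2 was higher there, also without a call (0.45 ± 0.18, adjusted p = 0.17). Of 9 heat shock genes 0 were called with a median of 0.20, and the mitochondrial chaperones HSPE1 and HSPD1 differed by 0.84 ± 0.29 (adjusted p = 0.158) and 0.51 ± 0.24.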

How the data were processed

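The deposited values are the authors' intensity per probe set, on a linear scale. The submitters' processing notes name MAS5, and the sources used here give neither its version nor its settings. Array medians ran from 55 to 71.6. No further scaling was applied. Control probe sets (67 of 12625) were left out. Values were taken as log2 after adding a pseudocount of 16, and the probe sets with a mean at or above the 40th percentile (7535 of 12558, a mean log2 of at least 5.80) were tested. A means model for the 7 groups of all 23 arrays was fitted with limma 3.58.1 in R 4.3.3, with an intensity trend (16 residual and 6.63 prior degrees of freedom) and 10 contrasts. Tests were two-sided, with Benjamini-Hochberg adjustment over all tested probe sets. The same code was tested on simulated data with known changes. For 400 mg/kg/day against vehicle a log2 change of 1 was called in 20 of 67 probe sets at 15 days. At 4 days it was called in 5 of 67. A change of 2 was called in 51 of 66 and 31 of 66. Of 7335 unchanged probe sets 5 and 2 were called. A real change of such a size can thus go uncalled, above all at 4 days.

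Groups, doses and replicate numbers came from the labels. The labels number animals within each group, and the 58 same-numbered pairs of animals had correlated deviations between -0.0873 and 0.0719, so the numbers were not taken to pair animals. A gene with several probe sets was represented by its brightest tested one that names it alone. Correlations used 100000 within-group permutations. Named genes of other lists were those called, or else the 2 with the smallest p over the 4 doses. The members and lists were chosen with earlier results of these data known. Alternatives covered the pseudocount, the filter, scaling, the variance trend, a replicate block and leaving out each animal. No sequences or genome coordinates were used here.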

Additional observations from a re-analysis of the deposited data

Results flagged for a closer look

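In groups of 4 animals, 5 of 68 combinations of probe set and group held an animal whose distance to the next was large for the group's range. For independent, normally distributed values about 1 in 20, or 3.4, would be flagged. The test used linear intensities and several probe sets of 1 gene, so that rate is only a rough guide here. All but 1 of the 5 concern replicate 4. FOS 1915_s_at was 257.8 in replicate 4 at 30 mg/kg/day, against 83.8 for the next animal. FOS 2094_s_at was 84 in replicate 4 at 150 mg/kg/day, against 64.5 for the next. JUN 32583_at, below the intensity filter, was 90.4 in replicate 4 at 3 mg/kg/day and 66.1 in replicate 4 at 30 mg/kg/day, against 12.5 and 10.7 for the next animals. It was 18 in replicate 1 at 400 mg/kg/day, against 7.5 for the next, with all 4 values under the filter's limit. These 4-animal groups are separate animals, and their numbers are only names.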

How the results depend on the processing

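Of 150 differences (15 probe sets in 10 comparisons), 10 were called, and 0 of these changed sign in any refit. Over 2460 refitted differences 16 lost a call and 12 gained one. A further 81, over 37 results, changed sign without being called before or after, 71 of them in refits without 1 animal. The number of called members went from 4 to between 2 and 5 without 1 animal for 400 mg/kg/day in the 15-day comparison with vehicle, from 0 to at most 1 for 30 mg/kg/day and for the mean of the doses, and from 1 to between 0 and 1 for vehicle at 15 against 4 days. It was 2 without 15-day vehicle replicate 1. For the dose slope it was 3 to 5 and for 400 against 3 mg/kg/day 1. No other setting moved these counts by over 1.5 times.

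Apart from refits without 1 animal, CEBPB lost its call at 400 mg/kg/day with no filter, with equal array medians and with no variance trend (adjusted p = 0.0525, 0.134 and 0.0824), and its slope lost it with equal medians (adjusted p = 0.0527). With a pseudocount of 64, JUNB 32786_at gained a call at 400 mg/kg/day and in its slope (adjusted p = 0.0418 and 0.0414), as did the slope of MYC 37724_at (adjusted p = 0.0467). With the replicate block the slope of MYC 37724_at was called (adjusted p = 0.0442), and no other member call changed.

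Calls over all probe sets without 1 animal ran from 93 to 136 for 400 mg/kg/day at 15 days (161 in full), 13 to 44 at 150 (51), 0 to 5 at 30 (1), 0 to 2 at 3 (0), 1 to 36 for the mean of doses (18), 2 to 4 at 4 days (22) and 10 to 44 for vehicle by day (65). With no variance trend they were 28 at 150 mg/kg/day, 11 for the mean of doses, 3 at 4 days and 39 for vehicle by day. With the replicate block they were 30 at 150 mg/kg/day, 4 at 30 mg/kg/day and 7 for the mean of doses. For the mean of doses, no filter gave 11, a pseudocount of 1 gave 29 and quantile normalization 30. No filter gave 12 and quantile normalization 14 at 4 days, and a pseudocount of 64 gave 2 at 30 mg/kg/day.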

Other observations

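Outside the member list, the genes most like each representative were ranked by Pearson r of log2 values around the group mean over 23 arrays, out of all tested probe sets. They are named as a description, since the highest of so many values is large by selection. For NFKBIA it was MYCL (r = 0.88), for MYC 1827_s_at it was PTMS (0.85), for JUNB 32786_at INSR (0.79) and for ZFP36 MEST (0.79). For FOS 1915_s_at it was USP6NL (0.79), for EGR1 DICER1 (0.78), for DUSP1 B4GALT5 (0.77), for CEBPB LAS1L (0.75) and for JUN 1895_at EPOR (0.73). No gene stood among the nearest 3 of more than 1 member.

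Over the mean of the 4 doses at 15 days, 8 of 9 heat shock genes had differences above 0 (median 0.40, against -0.02 over all tested probe sets) and 0 were called, where 0.239% of all tested probe sets were. All 9 rest on the same 3 vehicle animals, so their signs are not separate observations. HSPE1 stood at 0.95 ± 0.24 (adjusted p = 0.0851) and HSPD1 at 0.40 ± 0.20. Between 400 and 3 mg/kg/day, without vehicle animals, the list had both signs, with HSPE1 at -0.21 ± 0.27 and HSPD1 at 0.11 ± 0.22. TIMP1, a metalloproteinase inhibitor of the stellate cell list, was the 1 gene of all lists called over the mean of the 4 doses (-1.69 ± 0.35, adjusted p = 0.038).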
